A study of Mus musculus with 8 samples.

Results

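The mouse Slco1 cluster on chromosome 6 holds 6 genes for organic anion transporters, Slco1c1, Slco1b2, Slco1a4, Slco1a1, Slco1a6 and Slco1a5 in that order along the chromosome. Its open chromatin was read from ATAC-seq, in which the Tn5 transposase cuts and tags accessible DNA, in the mouse breast cancer line PB3 and in its drug-resistant derivatives. Accessible regions were taken from a table of 57417 consensus regions, and a region was counted for a transporter when that gene was its nearest protein-coding gene, inside the gene body or within 50 kb of it. By this rule 5 regions belonged to 3 of the 6 genes: 1 to Slco1a1, 2 to Slco1a6 and 2 to Slco1a5. Slco1c1, Slco1b2 and Slco1a4 had no consensus region, so that accessibility at them was not measured, which is not the same as closed chromatin. All 5 regions passed the filter on low counts.

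The 4 lines were PB3-Parental, which was untreated, PB3-ERI-R, PB3-PAC-R and PB3-VIN-R. All derive from PB3, are labelled as lacking the oestrogen, progesterone and Her2 receptors, and were grown in the same medium. The resistant lines are described as clones obtained under eribulin (spelled Erubilin in the treatment label), paclitaxel and vinorelbine, each at 300, 500 and 800 nM; all these drugs act on microtubules. Each line had 2 libraries, and nothing states that these came from separate cultures or that more than 1 clone per drug was used, so the p-values measure the spread between libraries only. A difference between lines may therefore belong to the drug or to the clone, which cannot be told apart.

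Slco1 carriers sit in the plasma membrane and take bile acids, conjugated steroids, thyroid hormones and many drugs into cells without using the sodium gradient. They are best known from liver, kidney, intestine and the barriers of the brain, and the Slco1a and Slco1b carriers of the mouse handle taxanes such as paclitaxel. Slco1b2 is a hepatocyte carrier, and Slco1c1 carries thyroxine into the brain. Slco1a1 and Slco1a4 are liver carriers, the first also made in kidney and the second also at the blood-brain barrier. Slco1a6 is mainly a kidney gene.

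The cluster was chosen with results from the same libraries known, among them a region near Slco1a1 that was more open in PB3-PAC-R than in PB3-Parental. The values of PB3-PAC-R are therefore given as a description, without a test. PB3-ERI-R and PB3-VIN-R were tested against PB3-Parental and against each other. The comparisons with PB3-Parental use the same parental libraries as that known result and are not independent of the choice.

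In the annotation of the mm10 build (GRCm38.p6) the cluster spans chr6:141524354-142322981, 799 kb. Slco1c1 and Slco1b2 lie on the plus strand and the other 4 genes on the minus strand. The first 3 genes lie within a stretch of 433 kb, chr6:141463089-141896209, that holds no consensus region. Of the 57396 intervals between neighbouring regions across the genome, 1.33% were as long or longer. Genes without a consensus region were common: of 21900 protein-coding genes, 14785 (67.5%) had one.

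The regions lie outside the annotated gene starts. The Slco1a1 region, chr6:141896210-141896757 (548 bp), lies 10.5 kb beyond the 3′ end of Slco1a1, inside the body of the annotated gene Gm30843, which is not protein-coding. The Slco1a6 intragenic region, chr6:142091146-142091633 (488 bp), lies inside Slco1a6, 94.8 kb downstream of its start and so close to its 3′ end. The Slco1a6 upstream region, chr6:142191957-142192309 (353 bp), lies 5.78 kb outside Slco1a6 on the side of its start and overlaps no annotated gene. The remaining regions lie within Slco1a5, named here by their side: the 3′ region, chr6:142255610-142256013 (404 bp), 67.2 kb downstream of the annotated start, and the 5′ region, chr6:142275748-142276509 (762 bp), 46.9 kb downstream. The farthest region that the distance rule admitted was the one at 10.5 kb from Slco1a1, and the nearest region left out lay 15.9 kb from Slco1a5 but closer to Pyroxd1.

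RefSeq promoter windows, 250 bases before to 50 after a gene start (GRCm38.p6), were available for all 6 genes, with an additional inner start for Slco1a5. None of these 7 windows overlapped a consensus region, whereas 37.5% of 32851 windows over all genes did. Shown are 4 of the windows: those of the inner Slco1a5 start and of Slco1a6, each within 10 kb of one of the 5 regions, and those of Slco1a4 and Slco1a1, which lie on either side of the Slco1a1 region. The inner Slco1a5 promoter, chr6:142278825-142279124, lies 2.32 kb from the 5′ region, which is downstream of it, and the Slco1a6 promoter, chr6:142186100-142186399, lies 5.56 kb from the upstream region. The Slco1a4 promoter, chr6:141856171-141856470, lies 39.7 kb from the Slco1a1 region on its upstream side, nearer than the Slco1a1 promoter, chr6:141946913-141947212, which lies 50.2 kb from it. All are on the minus strand and written 5′ to 3′, with capitals at matches, on either strand, to 4 motifs whose letters follow the sequences.
Slco1a5 inner promoter: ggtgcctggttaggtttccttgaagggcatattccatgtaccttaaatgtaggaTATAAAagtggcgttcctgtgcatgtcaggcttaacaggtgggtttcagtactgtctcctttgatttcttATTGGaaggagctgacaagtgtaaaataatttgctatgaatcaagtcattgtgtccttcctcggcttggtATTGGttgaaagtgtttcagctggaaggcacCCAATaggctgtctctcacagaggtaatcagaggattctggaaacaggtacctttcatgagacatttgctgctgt
Slco1a6 promoter: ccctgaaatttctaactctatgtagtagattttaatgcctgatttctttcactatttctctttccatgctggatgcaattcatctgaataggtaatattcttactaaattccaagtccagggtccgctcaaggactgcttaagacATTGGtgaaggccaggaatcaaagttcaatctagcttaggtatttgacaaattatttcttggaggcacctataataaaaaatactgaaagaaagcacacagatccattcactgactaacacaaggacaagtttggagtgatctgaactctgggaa
Slco1a4 promoter: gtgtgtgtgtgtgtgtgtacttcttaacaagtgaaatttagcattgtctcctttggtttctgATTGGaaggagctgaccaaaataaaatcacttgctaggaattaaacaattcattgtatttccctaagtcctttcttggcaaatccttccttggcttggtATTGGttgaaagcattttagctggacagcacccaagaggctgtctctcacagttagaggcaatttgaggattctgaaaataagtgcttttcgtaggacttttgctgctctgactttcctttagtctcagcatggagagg
Slco1a1 promoter: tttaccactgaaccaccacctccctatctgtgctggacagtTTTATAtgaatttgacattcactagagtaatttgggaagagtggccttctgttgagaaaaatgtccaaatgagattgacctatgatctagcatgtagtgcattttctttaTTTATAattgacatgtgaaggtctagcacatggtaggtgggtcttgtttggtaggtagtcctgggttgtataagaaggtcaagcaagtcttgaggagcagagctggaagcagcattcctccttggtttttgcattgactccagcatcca
A match could lie on either strand and at any distance from the start. All matches in these windows are to the letters of the TATA and CCAAT boxes. The latter, searched by the letters of its name, occurs 3 times in the inner Slco1a5 window, 2 times in that of Slco1a4 and 1 time in that of Slco1a6, and 37.4% of all promoter windows hold it. The letters of the TATA box, searched as TATAAA, occur 2 times in the Slco1a1 window and 1 time in the inner Slco1a5 window. In the Slco1a1 window they read TTTATA, on the opposite strand. Of all windows 13.6% hold them, and whether any acts as a TATA box was not tested. The AP-1 site, searched as TGAGTCA and held by 5.2% of all windows, matches in none of the 7. The same holds for the core of the antioxidant response element, TGACNNNGC, which 12.4% of all windows have. No matches in the 7 windows overlap each other. In pairwise alignment the inner Slco1a5 and Slco1a4 windows were the most alike of the 21 pairs, with 55.2% identical positions against a lowest value of 44.6%.

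Counts per library summed to between 10521964 and 24052237 over all regions, the lowest in PB3-ERI-R and the highest in PB3-VIN-R. Levels of a region are given in CPM, which are counts set to a common library total after trimmed-mean (TMM) scaling. Changes are log2 fold changes from edgeR's quasi-likelihood fit, with Benjamini-Hochberg adjustment over all 57415 regions tested and a threshold of 0.05. The lines differed far beyond this cluster: PB3-ERI-R had 20338 regions gained and 21582 lost against PB3-Parental, a split of 14862 and 25149 without scaling factors (median log2 over all regions -0.29, beside 0.07 with them), whereas PB3-VIN-R had 223 gained and 166 lost.

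**Figure D1:**
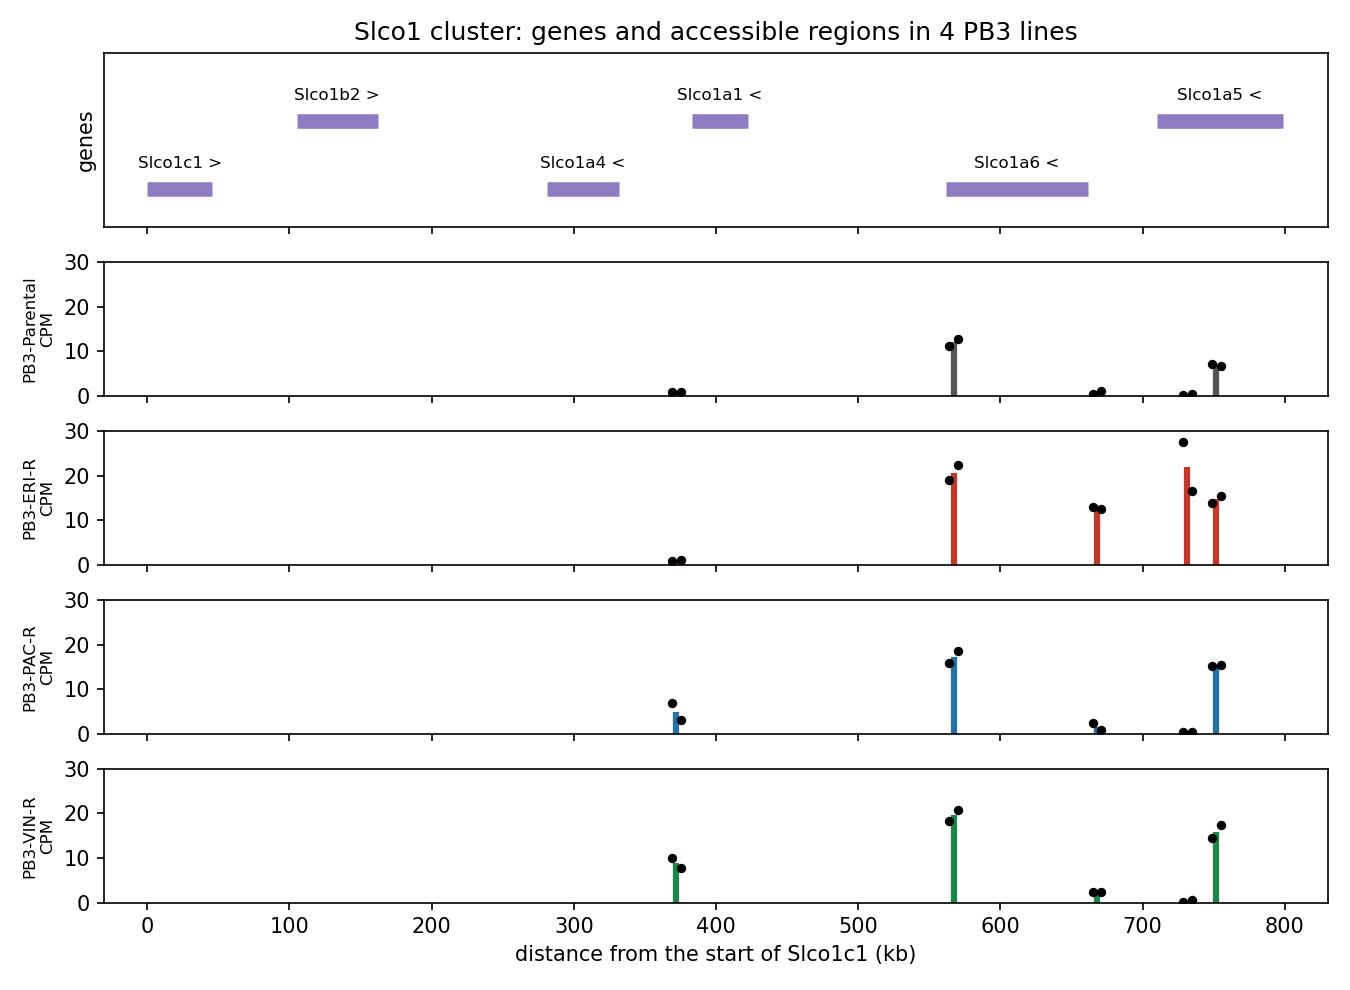
The 6 genes of the cluster (top; arrowheads give the strand) and the CPM of the 5 regions in each line (bars, mean of 2 libraries; points, each library), against the distance in kb from the start of Slco1c1. Regions are absent from the left part, over Slco1c1, Slco1b2 and Slco1a4; the 3′ Slco1a5 region stands out in PB3-ERI-R (27.6 and 16.5 CPM) and the Slco1a1 region in the other resistant lines.

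Accessibility in the cluster differed by line and by gene. In PB3-ERI-R the regions of Slco1a6 and Slco1a5 were more open than in PB3-Parental, most of all the 3′ Slco1a5 region, while the Slco1a1 region was close to its parental level. In PB3-VIN-R the Slco1a1 region and the 5′ Slco1a5 region were more open. Against PB3-Parental, 4 of 5 regions rose and 0 fell in PB3-ERI-R, where 35.4% of all regions rose and 37.6% fell. Those counts were the same at an unadjusted p under 0.05 and in DESeq2. The 3′ Slco1a5 and Slco1a6 upstream regions had a listed peak in PB3-ERI-R alone, and the Slco1a1 region in PB3-VIN-R alone. A region listed for a single line entered the table through the line where it was high, so that its direction in that line was set by how the table was made, and its p-value there is not support for a gain. In PB3-VIN-R 2 of 5 rose and 0 fell, where 0.388% of all regions rose and 0.289% fell. Both that rose had a listed peak in PB3-VIN-R and none in PB3-Parental, so this count is not support for a gain. DESeq2 gave 2 and 0, and at an unadjusted p under 0.05 there were 4 higher and 0 lower in that line. More cells with an open region and a more open region per cell cannot be told apart in bulk libraries.

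The Slco1a5 3′ region was the most changed of the 5 in PB3-ERI-R. It was at 0.181 and 0.333 CPM in PB3-Parental, 27.6 and 16.5 in PB3-ERI-R, 0.432 and 0.274 in PB3-PAC-R, while PB3-VIN-R had 0.153 and 0.499. Both PB3-ERI-R libraries were far above the 6 others, which overlapped each other. The change against PB3-Parental was 6.40 ± 0.49 (SE) on the log2 scale, 84.7-fold, in edgeR (adjusted p = 3.57e-08). The parental level rests on 3 and 5 counts, so the size of this fold is uncertain, and its direction was set by how the table was made. In PB3-VIN-R the log2 change was 0.33 with a 95% interval of -1.22 to 1.88 (adjusted p = 1). PB3-ERI-R exceeded PB3-VIN-R by 6.08 ± 0.45 (adjusted p = 1.99e-08). That difference was 5.43 without PB3-VIN-R replicate 1 and 7.07 without replicate 2. The authors' peak lists, called per line, held a peak here in PB3-ERI-R alone, so the p-values for that line are not support for a gain.

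The Slco1a5 5′ region, downstream of the inner promoter shown above, was higher in every library of the 3 resistant lines than in PB3-Parental. It was at 7.22 and 6.59 CPM in PB3-Parental, 13.8 and 15.5 in PB3-ERI-R, 15.1 and 15.5 in PB3-PAC-R, while PB3-VIN-R had 14.4 and 17.3. The parental libraries were the lowest of the 8, and the resistant lines overlapped. It rose by 1.08 ± 0.23 on the log2 scale in PB3-ERI-R (edgeR adjusted p = 0.000608) and by 1.20 ± 0.22 in PB3-VIN-R (adjusted p = 0.0271). The log2 value of PB3-PAC-R was 1.15. The difference between PB3-ERI-R and PB3-VIN-R was -0.11, with a 95% interval of -0.58 to 0.35 (adjusted p = 0.655).

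The call in PB3-VIN-R did not hold in every alternative. It held in 10 of 17 alternatives, with log2 values from 0.88 to 1.33. It was lost without PB3-Parental replicate 2 (adjusted p = 0.238), PB3-ERI-R replicate 1 (0.065) or 2 (0.0664), and PB3-VIN-R replicate 1 (0.085) or 2 (0.255), and also with only the lines compared in the fit (0.071). Peaks were listed here in PB3-PAC-R and PB3-VIN-R, so the p-value in PB3-VIN-R carries the limit given above. PB3-ERI-R, without a listed peak, had 149 and 140 counts, beside 244 and 227 in PB3-PAC-R and 120 and 99 in PB3-Parental. Why no peak was listed in PB3-ERI-R was not tested.

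The Slco1a6 upstream region, 5.56 kb from the promoter of this kidney carrier, was nearly closed in PB3-Parental, with 0.361 and 0.998 CPM. It was at 12.9 and 12.6 CPM in PB3-ERI-R, 2.28 and 0.822 in PB3-PAC-R, while PB3-VIN-R had 2.37 and 2.46. The PB3-ERI-R libraries were well above all others, those of PB3-VIN-R lay above both parental ones, and PB3-PAC-R overlapped the parental range. The rise in PB3-ERI-R was 4.24 ± 0.45 on the log2 scale, 18.9-fold (edgeR adjusted p = 9e-07). It was 5.12 without PB3-Parental replicate 2. The log2 value in PB3-VIN-R was 1.84 ± 0.48 and did not pass (adjusted p = 0.107); leaving out 1 library gave 1.28 to 2.71, the highest without PB3-Parental replicate 2. In that line it passed without PB3-PAC-R replicate 1 (adjusted p = 0.0435) or 2 (0.0383), and over the alternatives its adjusted p ran from 0.0163 to 0.436. PB3-ERI-R exceeded PB3-VIN-R by 2.40 ± 0.37 (adjusted p = 3.24e-05). The log2 value of PB3-PAC-R was 1.23, and 0.30 without its replicate 1 and higher than 1.23 without PB3-Parental replicate 2. A peak was listed in PB3-ERI-R alone, so the p-values for that line are not support for a gain.

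The Slco1a6 intragenic region was the only one of the 5 with a listed peak in all 4 lines. It was at 11.2 and 12.8 CPM in PB3-Parental, 18.9 and 22.4 in PB3-ERI-R, 15.9 and 18.5 in PB3-PAC-R, while PB3-VIN-R had 18.3 and 20.8. The parental libraries were again the lowest, and the resistant lines overlapped. It rose by 0.78 ± 0.21 on the log2 scale in PB3-ERI-R (edgeR adjusted p = 0.0044), a call that ended without scaling factors (0.43, adjusted p = 0.0908). In PB3-VIN-R the log2 value was 0.70 ± 0.21 (adjusted p = 0.163). It passed in 1 of 17 alternatives, the fit with a replicate block (0.0124). In PB3-PAC-R the log2 value was 0.52. PB3-ERI-R and PB3-VIN-R differed by 0.07, with a 95% interval of -0.37 to 0.52 (adjusted p = 0.762).

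The Slco1a1 region was high in other lines than the 3′ Slco1a5 region. It was at 0.903 and 0.732 CPM in PB3-Parental, 0.929 and 1.11 in PB3-ERI-R, 6.85 and 3.01 in PB3-PAC-R, while PB3-VIN-R had 9.99 and 7.82. Every library of PB3-PAC-R and PB3-VIN-R lay above every library of the other lines. The rise in PB3-VIN-R was 3.43 ± 0.41 on the log2 scale, 10.8-fold (edgeR adjusted p = 0.00373). Its log2 value ran from 3.11 to 3.62 over 17 alternatives. All of these used the same region, which entered the table through PB3-VIN-R, so passing the threshold is not support for a gain. In PB3-ERI-R the log2 value was 0.30 with a 95% interval of -0.88 to 1.48 (adjusted p = 0.633). PB3-ERI-R was below PB3-VIN-R, at a log2 difference of -3.13 ± 0.43 (adjusted p = 1.02e-05). The log2 value of PB3-PAC-R, part of the result known when the cluster was chosen, was 2.58, with 1.87 without its replicate 1 and 3.05 without its replicate 2. Although PB3-PAC-R had 111 and 44 counts here, the authors' lists held a peak in PB3-VIN-R alone.

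**Figure D2:**
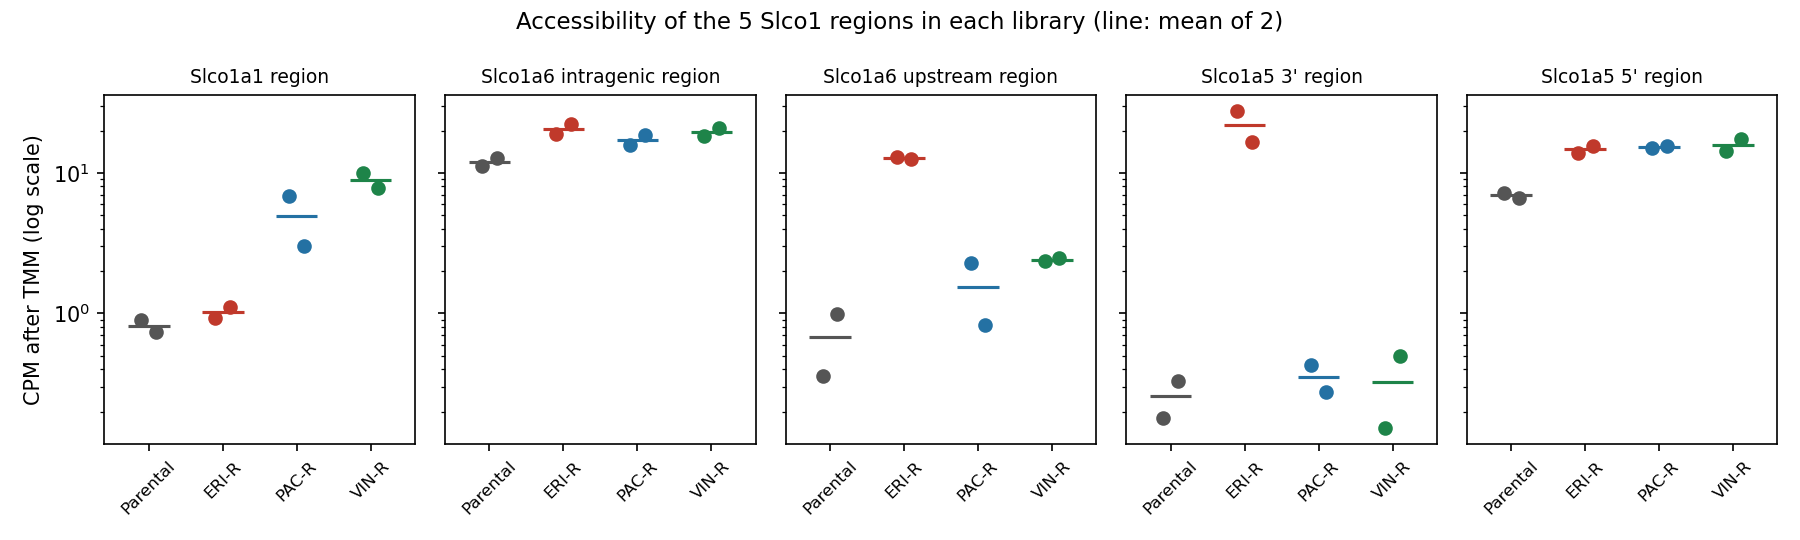
CPM of each of the 5 regions in every library on a log axis (points; horizontal lines, mean of 2 libraries of a line). Both PB3-ERI-R libraries stand apart in the 3′ Slco1a5 region and the Slco1a6 upstream region, and those of PB3-PAC-R and PB3-VIN-R in the Slco1a1 region; the parental libraries are lowest in the 5′ Slco1a5 and Slco1a6 intragenic regions.

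Summed over its regions, each gene gave a locus level, in CPM of the total over 14785 loci. The Slco1a5 locus was at 8.81 and 8.06 CPM in PB3-Parental, 39.9 and 31.3 in PB3-ERI-R, 18.5 and 18.2 in PB3-PAC-R, while PB3-VIN-R had 18.0 and 19.7. The order was thus PB3-ERI-R, then PB3-PAC-R and PB3-VIN-R, which overlapped, then PB3-Parental. The locus rose by 2.08 ± 0.19 on the log2 scale in PB3-ERI-R (edgeR adjusted p = 4.01e-06) and by 1.16 ± 0.18 in PB3-VIN-R (adjusted p = 0.0227), and its log2 value in PB3-PAC-R was 1.12. PB3-ERI-R exceeded PB3-VIN-R by 0.92 ± 0.17 (adjusted p = 0.000881). The sum holds the 3′ region, listed in PB3-ERI-R alone, and the 5′ region, listed in PB3-PAC-R and PB3-VIN-R. These p-values are therefore not support for a gain or for a difference between the lines. At the 5′ region alone, PB3-ERI-R and PB3-VIN-R differed by -0.11. The call in PB3-VIN-R held in 12 of 18 alternatives, with log2 values from 0.84 to 1.22. It was lost with offsets for the 5 Mb window around the cluster and with only the lines compared (0.0612). It was also lost without PB3-Parental replicate 1 or 2, or PB3-VIN-R replicate 1 or 2.

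The Slco1a6 locus was at 13.7 and 16.1 CPM in PB3-Parental, 30.6 and 34.2 in PB3-ERI-R, 21.7 and 22.2 in PB3-PAC-R, while both libraries of PB3-VIN-R were at 25.7. No line overlapped another. The locus rose by 1.12 ± 0.16 on the log2 scale in PB3-ERI-R (edgeR adjusted p = 0.000124). This sum includes the upstream region, listed in PB3-ERI-R alone, so its p-values for that line are not support for a gain. The intragenic region, listed in every line, had a log2 value of 0.78 in PB3-ERI-R. In PB3-VIN-R the log2 value was 0.78 ± 0.16 and did not pass (adjusted p = 0.0592), though DESeq2 passed it (0.00531). PB3-ERI-R and PB3-VIN-R differed by 0.33, with a 95% interval of -0.01 to 0.67 (adjusted p = 0.0837).

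The Slco1a1 locus holds the single region described above, with the same limit on its p-value in PB3-VIN-R. At this level it rose by 3.43 ± 0.45 on the log2 scale in PB3-VIN-R (edgeR adjusted p = 0.0149; 0.12 without PB3-Parental replicate 2). In PB3-ERI-R the log2 value was 0.02, with a 95% interval of -1.34 to 1.38 (adjusted p = 0.98). In all, 2 of the 3 loci rose in PB3-ERI-R, where 28.1% of loci rose and 30.4% fell, and 2 of 3 in PB3-VIN-R, where 0.399% rose and 0.277% fell. Each locus that rose held a region listed in that line and not in PB3-Parental, so these counts are not support for a gain. Between PB3-ERI-R and PB3-VIN-R, 3 of 5 regions differed, beside 73.1% of all regions, and 2 of 3 loci, beside 59% of all loci. The regions that differed were each listed in the higher line alone, so these counts are not support for a difference.

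The chromosome around the cluster moved as well. In the 5 Mb window chr6:140000001-145000000, the other 108 regions had a median log2 change of -1.67 in PB3-ERI-R. It was 0.21 in PB3-PAC-R, and PB3-VIN-R had 0.32. The rises in PB3-ERI-R thus stood in a window whose median region was less open, and its part in the results was not tested beyond setting the members against it. Against the window medians the 3′ Slco1a5 region was at 8.07 on the log2 scale in PB3-ERI-R, and the Slco1a1 region was then also past the threshold (1.96, edgeR adjusted p = 0.00632). In PB3-VIN-R the 5′ Slco1a5 region was no longer past it (0.88, adjusted p = 0.11). Fewer DNA copies and less open chromatin cannot be told apart in these counts.

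**Figure D3:**
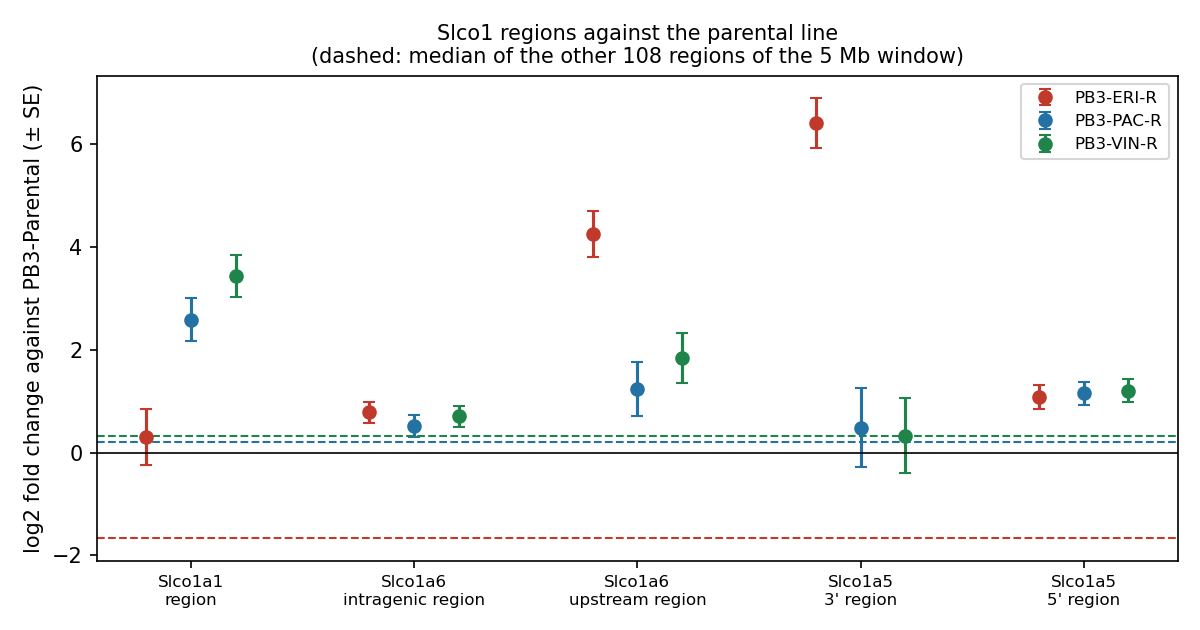
Log2 fold change against PB3-Parental (points; bars, ± SE of the edgeR fit) of the 5 regions in PB3-ERI-R, PB3-PAC-R and PB3-VIN-R, with dashed lines at the medians of the other 108 regions of the 5 Mb window (-1.67, 0.21 and 0.32). The PB3-ERI-R points of all 5 regions lie above that line's window median, at 0.30 or higher.

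The nearest regions on either side differed in direction. On the Slco1c1 side, the nearest regions lay in Pde3a, a cyclic nucleotide phosphodiesterase gene, and had log2 values of -2.90 and -3.29 in PB3-ERI-R. On the Slco1a5 side, the nearest region, 15.9 kb away and assigned to Pyroxd1, an oxidoreductase gene, went from 4.45 and 4.59 CPM in PB3-Parental to 34.4 and 30.2 in PB3-ERI-R, a log2 value of 2.84. The next region had a log2 value of 2.47. This place lies 15.6 kb from the outer Slco1a5 promoter on its upstream side.

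Of the 5 protein-coding genes on either side of the cluster, 8 had a region. As loci in PB3-ERI-R, Pyroxd1 (1.35 ± 0.11, edgeR adjusted p = 2.26e-06) and Aebp2, a partner of Polycomb complexes (0.94 ± 0.12, adjusted p = 4.36e-05), rose. Pde3a (-3.32), Plcz1, the sperm phospholipase (-3.80), Golt1b, a Golgi transport gene (-3.18), and Gys2, the liver glycogen synthase (-1.78), fell, with adjusted p of at most 0.00192. Plekha5 (0.08) and Recql, a DNA helicase gene (0.10), did not pass. In PB3-VIN-R, Golt1b rose by 1.19 ± 0.18 (adjusted p = 0.0192) and the other 7 did not pass, with log2 values from 0.10 to 1.45. Capza3 and Spx outside the cluster, and Gm5724, Gm6614 and Iapp, the amylin gene, inside it, had no region.

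Other members of the Slco family lie elsewhere in the genome and carry prostaglandins, thyroid hormones and other anions. Of 9 listed genes, 6 had a region, and in PB3-ERI-R 2 rose and 2 fell (median log2 -0.25 over the 6, beside 0.00 over all loci, of which 28.1% rose and 30.4% fell). Slco4c1, a kidney carrier, rose from 1.56 ± 0.228 CPM (SD, n = 2) to 44.0 ± 1.34, a log2 change of 4.81 ± 0.29 in edgeR (adjusted p = 2.58e-07). Slco6d1 rose from 0.48 ± 0.131 to 12.5 ± 1.42 CPM, a log2 change of 4.67 ± 0.37 (adjusted p = 1.59e-06). In PB3-PAC-R and PB3-VIN-R, Slco4c1 was at 1.07 and 2.37 CPM and Slco6d1 at 0.189 and 0.281. Listed peaks were not looked up at loci outside the cluster. The limit given above for regions listed in a single line may therefore apply to these p-values. Slco2a1, the prostaglandin transporter, fell by 1.45 ± 0.13 (adjusted p = 4.54e-06), with 437 ± 24.8 CPM in PB3-Parental and 160 ± 21.4 in PB3-ERI-R. Slco5a1 fell by 1.26 ± 0.14 (adjusted p = 1.45e-05), and Slco3a1 (-0.39) and Slco4a1 (-0.10) did not pass.

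In PB3-VIN-R, Slco3a1 was lower, at 33.6 ± 2.9 CPM beside 93.3 ± 15.1 in PB3-Parental, and this log2 change of -1.47 ± 0.21 passed edgeR (adjusted p = 0.0167). No other locus of the list passed, also at an unadjusted p under 0.05 and in DESeq2. At an adjusted p of 0.843 or more, the other 5 had log2 values from -0.77 to 0.60. The 3 Slco1 loci had higher log2 values in PB3-VIN-R (0.78 to 3.43) than any of these 6, and that the lists differ was not tested. Genes beside the cluster had values from 0.10 to 1.45 in that line, in a 5 Mb window with a median of 0.32. Slco2b1, Slco6b1 and Slco6c1 gave no locus value.

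**Figure D4:**
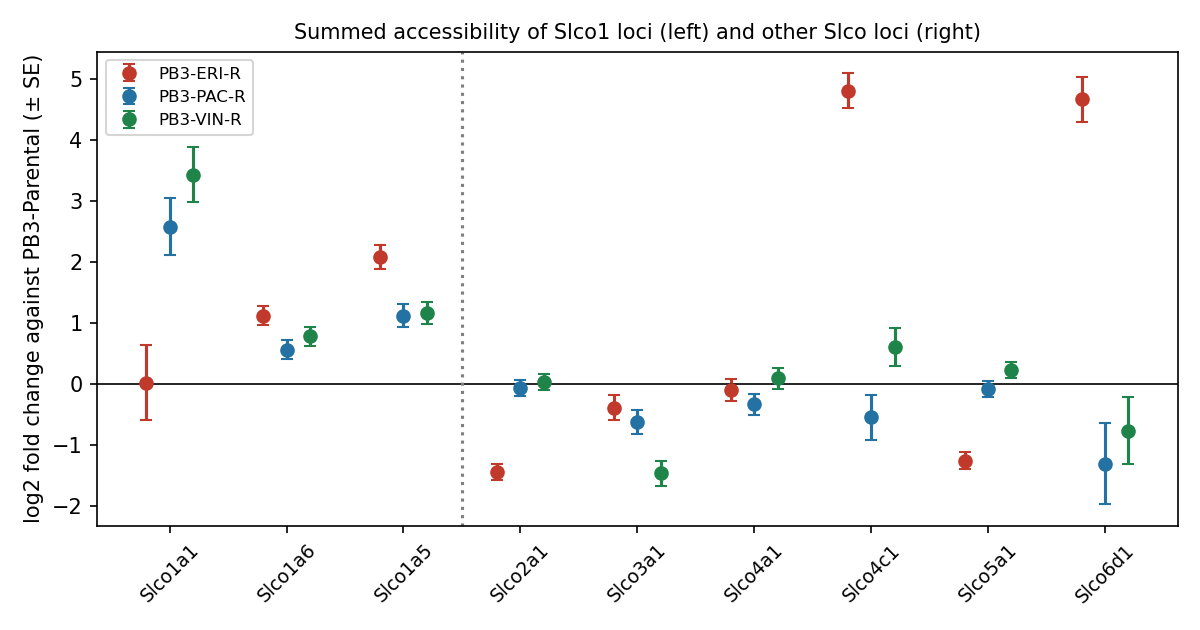
Log2 fold change against PB3-Parental (points; bars, ± SE of the edgeR fit) of the summed counts of the 3 Slco1 loci, left of the dotted line, and of 6 other Slco loci, right of it. In PB3-ERI-R, Slco4c1 (4.81) and Slco6d1 (4.67) exceed the 3 Slco1 loci (0.02 to 2.08). Listed peaks were not looked up for the other Slco loci. In PB3-VIN-R, Slco1a1 (3.43) has the highest value.

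Carriers and regulators that act with the Slco1 family were read from lists whose genes were chosen with earlier results known. Their counts in PB3-ERI-R, and those of the marker lists further on, stand beside the 28.1% of all loci that rose and the 30.4% that fell. Listed peaks were not looked up at the loci of these lists, so the limit for regions listed in a single line may apply to them. Of 12 other uptake carriers for organic ions and bile acids, 6 had a region, and 2 rose and 2 fell in PB3-ERI-R (median log2 -0.08). Slc22a2, an organic cation carrier of the kidney, rose by 4.38 ± 0.35. Slc22a12, the urate carrier, fell by 1.41 ± 0.28. The list of 10 organic anion efflux carriers does not hold the P-glycoprotein genes. There 8 carriers had a region, 0 rose and 5 fell (median log2 -0.79), the same at an unadjusted p under 0.05 and in DESeq2. Among them Abcc1 fell by 1.18 ± 0.13, Abcc4 by 0.89 ± 0.11 and the breast cancer resistance protein gene Abcg2 by 1.19 ± 0.14 (edgeR adjusted p of at most 3.55e-05). Of 19 regulators of transporter genes in liver, 18 had a region, 7 rose and 6 fell (8 and 5 in DESeq2; median log2 0.23). The forkhead factor Foxa2 fell by 2.65 ± 0.16, while Cebpa rose by 1.51 ± 0.17. In PB3-VIN-R no locus of these 3 lists passed edgeR's threshold. The lowest adjusted p was that of Abcc4, 0.051 at a log2 value of -0.54; this locus passed in DESeq2, and at an unadjusted p under 0.05 it was joined by 1 regulator, also lower. Median log2 values there were 0.19, -0.17 and -0.03 in the order of the lists.

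Markers of other tissues were set beside these values. Of 8 hepatocyte markers 4 had a region (Ttr, Serpina1a, Cyp2e1 and Tat had none). Their summed level was 43.1 and 47.0 CPM in PB3-Parental, 79.4 and 62.5 in PB3-ERI-R, and between 36.2 and 45.7 in the other lines, and Alb (4.89 ± 0.37) and Ahsg (2.91 ± 0.31) rose in PB3-ERI-R. The other measured hepatocyte markers, Apoa1 (-0.20 ± 0.19, edgeR adjusted p = 0.393) and Apob (-0.42 ± 0.21, adjusted p = 0.117), did not pass. Of 6 kidney tubule markers 2 had a region, with 0 rising and 1 falling (also in DESeq2), and of 8 endothelial markers 7 had one, with 2 rising and 3 falling. Of 10 epithelial markers all had a region and 8 rose in PB3-ERI-R, led by the epithelial factor Ehf (5.77 ± 0.16). Their summed level was 553 and 414 CPM in PB3-Parental, 1916 and 1677 in PB3-ERI-R, and 404 to 572 in PB3-PAC-R and PB3-VIN-R. Of 6 mesenchymal markers 4 fell and 1 rose. Their part in the results of the cluster was not tested. Of the receptors in the cell label, Pgr had no region, Esr1 fell by 0.82 ± 0.11 and Erbb2 rose by 0.88 ± 0.13 in PB3-ERI-R.

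Across the 8 libraries, the loci outside the surroundings of the cluster with the pattern most like that of Slco1a5 were Poldip3 (Pearson r = 0.980 of log2 CPM over 14714 loci compared) and the water channel Aqp2 (0.975). Those most like Slco1a6 were Pilrb2 (0.954) and the keratin Krt32 (0.939), and those most like Slco1a1 were Yaf2 (0.961) and Lrrc30 (0.953). These values describe 8 libraries of 4 lines and are the highest of many. A similar pattern did not mean a similar size. Poldip3 went from 103 and 99.3 CPM in PB3-Parental to 143 and 133 in PB3-ERI-R, while Aqp2 went from 29.1 and 26.0 to 82.0 and 62.6.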

How the data were processed

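ATAC-seq libraries of 4 mouse PB3 lines, 2 per line, were analysed. Per the submitters' processing notes, alignment and peak tools were Bowtie2 2.2.6 and MACS2 2.1.1 on mm10, beside cutadapt 1.9.1 for reads, featureCounts, deepTools, Picard and bcl2fastq 2.20.0.422. The sources used here do not say whether cut sites were shifted, or whether fragments or reads were counted. Raw counts for each region and library are what the authors deposited as a table. The authors deposited peak lists per line, with a score, a fold enrichment and a −log10 q-value per peak, used here only for the presence of a peak.

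Counts were fitted with edgeR 4.0.16 in R 4.3.3 (filterByExpr by line, TMM, quasi-likelihood test, 1 term per line, all 8 libraries), for regions and for counts summed per nearest protein-coding gene in RefSeq (within 50 kb; ties to the gene that starts first, none among the 5 regions). Calls used a Benjamini-Hochberg adjusted p under 0.05 over the whole table. The script was tested on simulated counts. CPM are per library total times TMM factor. Promoter windows came from RefSeq (GRCm38.p6). The alternatives were DESeq2 1.42.0, other scalings and filters, only the lines compared, offsets by 5 Mb window, a replicate block, regions within 10 kb and leaving out each library.

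The members and lists were chosen with earlier results of these data known. Named are all members and their regions, 5 genes on either side, the other Slco genes, up to 3 loci per further list with the smallest adjusted p in PB3-ERI-R, and the 2 loci most correlated with each member beyond 5 Mb (log2 of CPM plus 0.5); some loci that this rule names are not reported here, in the marker lists fewer are named, and Esr1 and Erbb2 are the receptors of the label.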

Additional observations from a re-analysis of the deposited data

Results flagged for a closer look

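The changes against PB3-Parental differed between PB3-ERI-R and PB3-VIN-R in 3 regions and 2 loci, by edgeR's contrast of these lines. Each of the 3 regions had a listed peak in the line where it was higher and in no other. Their directions were thus set by how the table was made, and the 2 loci hold such regions. The log2 difference, PB3-ERI-R minus PB3-VIN-R, was -3.13 for the Slco1a1 region and -3.41 for the Slco1a1 locus, which were higher in PB3-VIN-R. It was 2.40 for the Slco1a6 upstream region, 6.08 for the 3′ Slco1a5 region and 0.92 for the Slco1a5 locus, which were higher in PB3-ERI-R.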

How the results depend on the processing

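Of 413 tested single values under an alternative, 374 kept direction and side of the threshold, 15 lost and 13 gained the threshold, and 11 changed sign. Of the latter, 10 were past the threshold neither before nor after. Without scaling they were -0.05 for the Slco1a1 region and -0.06 for its locus in PB3-ERI-R, and -0.28 for PB3-ERI-R minus PB3-VIN-R at the Slco1a6 intragenic region; with loess offsets that difference was 0.45 at the 5′ Slco1a5 region. Leaving out 1 library gave -0.05 to 0.19 for the intragenic difference, -0.68 to 0.96 for the 3′ Slco1a5 region in PB3-VIN-R, and -0.13 to 0.20 for the Slco1a1 locus in PB3-ERI-R. The other sign change, of the 5′ Slco1a5 difference to 1.88 with 5 Mb window offsets, equals the subtraction of the window medians. Of 137 described values for PB3-PAC-R, 16 moved by more than the spread between its libraries. In PB3-ERI-R the counts of member regions and loci called stayed within 1.5 times.

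In PB3-VIN-R the 2 regions gained became 1 with only the lines compared, with window offsets or with regions within 10 kb, 4 with a replicate block, and 1 to 3 when leaving out 1 library. The 2 loci changed became 1 with only the lines compared, window offsets or regions within 10 kb, and 0 to 2 when leaving out 1 library. Between PB3-ERI-R and PB3-VIN-R the 5 regions and loci called became 8 with window offsets. The median log2 value of the 3 loci in PB3-PAC-R, 1.12, became 0.91 with window offsets and 0.83 with regions within 10 kb.

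Over all regions PB3-VIN-R had 389 calls in edgeR (223 higher, 166 lower), 628 in DESeq2 (290 higher, 338 lower), 245 with loess offsets, 197 with only the lines compared and 2717 with a replicate block, and 14 to 991 when leaving out 1 library. Over all loci its 100 calls became 222 in DESeq2, 60 with window offsets and 509 with the block, and 6 to 99 when leaving out 1 library. Replicate numbers are shared by the labels only, and nothing states that same-numbered libraries were processed together. Their deviations correlated at 0.073 (PB3-Parental and PB3-ERI-R) to 0.446 (PB3-PAC-R and PB3-VIN-R), under 0.1 for 1 pair of lines. For PB3-Parental and PB3-VIN-R the correlation was 0.396. A shared replicate effect thus remains possible. The main fit has no block, and the calls in PB3-VIN-R depend on this choice. Regions with few counts, as in PB3-Parental at the 3′ Slco1a5 region, limit the precision of folds.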
